A study of Mus musculus with 8 samples.

Results

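Glutathione transferases, UDP-glucuronosyltransferases and sulfotransferases were examined in the left kidney of mice after ischaemia-reperfusion. The set holds every gene whose name on the array begins with Gst, a letter and a digit, with Ugt and a digit, or with Sult and a digit. It comprised 57 of the 36826 genes named on the array, measured by 85 probes: 21 glutathione transferases, 15 glucuronosyltransferases and 21 sulfotransferases. No measured value entered this choice. Of the 57 genes, 44 were detected (well above background) in both mice of 1 group or more and were tested. Well above background on all 8 arrays were 38 of the 57, and on no array 13, namely Gstt4, Ugt2b1, Sult2a1 to Sult2a7, Sult3a1, Sult3a2, Sult6b1 and Sult6b2. A gene carried by 1 group only could pass this filter because it was high there, so the counts below describe the genes that passed and not the whole set. Gsta1, a marker given for the set, had no probe of that name and was not analysed here, while Gstm1 was well above background on all 8 arrays.

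Messenger RNA was profiled on 1-colour arrays in 4 groups of 2 mice, and the kidney was taken 24 h after surgery in all of them. Sham mice (numbers 1 and 4) had the abdomen opened and nothing else. IRI mice (30 and 34) lost the right kidney, and the vessels of the left one were clamped for 45 min and released. Control-miRNA mice (1 and 5) had the same operation, and 2 days earlier received 5 nmol of a control miRNA on polyethyleneimine nanoparticles (PEI-NPs, a cationic polymer carrier) in 200 μl through the tail vein. Mimic mice (6 and 7) were treated as the control-miRNA mice but received a mimic of miRNA-5100, whose sequence is that of mature mmu-miR-5100 in RefSeq, given below with the seed, bases 2 to 8, in capitals. The study asked how the mimic alters the response of the kidney to this injury. Clamping and loss of the right kidney cannot be told apart, because sham mice kept both kidneys, and no group received particles without the operation. The labels used here give no strain, sex or age. The mice are numbered separately, and p-values measure only the spread between these samples.
mmu-miR-5100: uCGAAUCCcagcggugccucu

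These enzymes attach a water-soluble group to drugs, hormones, bile pigments and reactive by-products of metabolism, after which the conjugate can be pumped out of the cell. Glutathione transferases (GST) use the tripeptide glutathione, UDP-glucuronosyltransferases (UGT) use sugar nucleotides, and sulfotransferases (SULT) use the sulfate donor PAPS. In the kidney the cells of the proximal tubule carry much of this work, and they are also the cells that suffer most when blood flow stops.

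The 8 arrays shared 1 slide and 1 scan. Sham and IRI arrays shared one slide row and the injected groups the other, so row and injection cannot be told apart. Within each row, slide columns 1 and 2 held the sham or mimic kidneys, and columns 3 and 4 the others. Levels are log2 signals relative to the 75th percentile of the array, so 0 is that percentile. They compare kidneys for 1 gene and do not rank genes. The 75th percentile itself lay between 401 and 589 in the sham, IRI and control-miRNA kidneys and was lower, at 305 and 239, in mimic 6 and mimic 7. All 8 markers of tubular injury rose in each of the 3 injured groups. The summed level of 12 proximal tubule markers lay between 10.28 and 10.32 in sham kidneys, 9.17 and 9.20 after IRI, 9.01 and 9.14 with control miRNA and 8.63 and 8.84 with the mimic, with all 12 detected and 9, 10 and 10 of them called lower in the injured groups. Pck1 went the other way, rising by 1.63 in IRI and 1.43 in control-miRNA mice (adjusted p = 0.011 and 0.0183). In bulk tissue, fewer cells of a type and less RNA per cell cannot be told apart. Of 8 hepatocyte markers 7 were detected, with summed levels between 6.52 and 6.55 in sham and between 3.62 and 6.33 in the injured kidneys. Of 7 adrenal markers 4, Cyp11a1, Cyp11b1, Cyp11b2 and Mc2r, were not well above background on any array. The part of these cell types in the results below was not tested.

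Against sham, the kidneys after ischaemia-reperfusion had lower levels of most of the UGT2B enzymes, of Ugt3a1 and Ugt3a2, and of Gstk1, Gstz1 and Sult1c2, and higher levels of Gsta2, Gstm5, Gstp2, Gstp3 and Sult2b1. These genes were called in the same direction in each injured group. In IRI mice 6 of the 44 genes rose and 13 fell, which is 43.2% of them, where 18.3% of all 21264 genes tested were called. In control-miRNA mice 6 rose and 10 fell (36.4%, against 17.4% of all genes), and in mimic mice 6 rose and 17 fell (52.3%, against 27.9%). A call here is a limma adjusted p under 0.05 over all genes. The 3 comparisons share the same 2 sham kidneys and are not independent. The median difference over the 44 genes was -0.09 for IRI, -0.15 for control-miRNA and -0.28 for mimic mice, beside -0.08, -0.05 and 0.10 over all genes. All 6 injured kidneys lay below both sham kidneys for 16 of the 44 genes (36.4%) and above both for 6 (13.6%). Over all genes these shares were 17.8% and 17.8%. Pairwise, the injured group did not overlap with sham for 36 of the 44 genes after IRI (81.8%, against 71.7% of all genes), 32 with control miRNA (72.7%, against 68.7%) and 33 with the mimic (75%, against 68.7%). With the brightness of the array as a covariate, 0 genes of the set were called in mimic against sham, and 125 of all genes in place of 5937. With the slide column as a covariate, 0 were called higher and 5 lower in IRI mice (11.4%, against 3.84% of all genes) and 0 higher and 6 lower in control-miRNA mice (13.6%, against 3.23%).

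**Figure D1:**
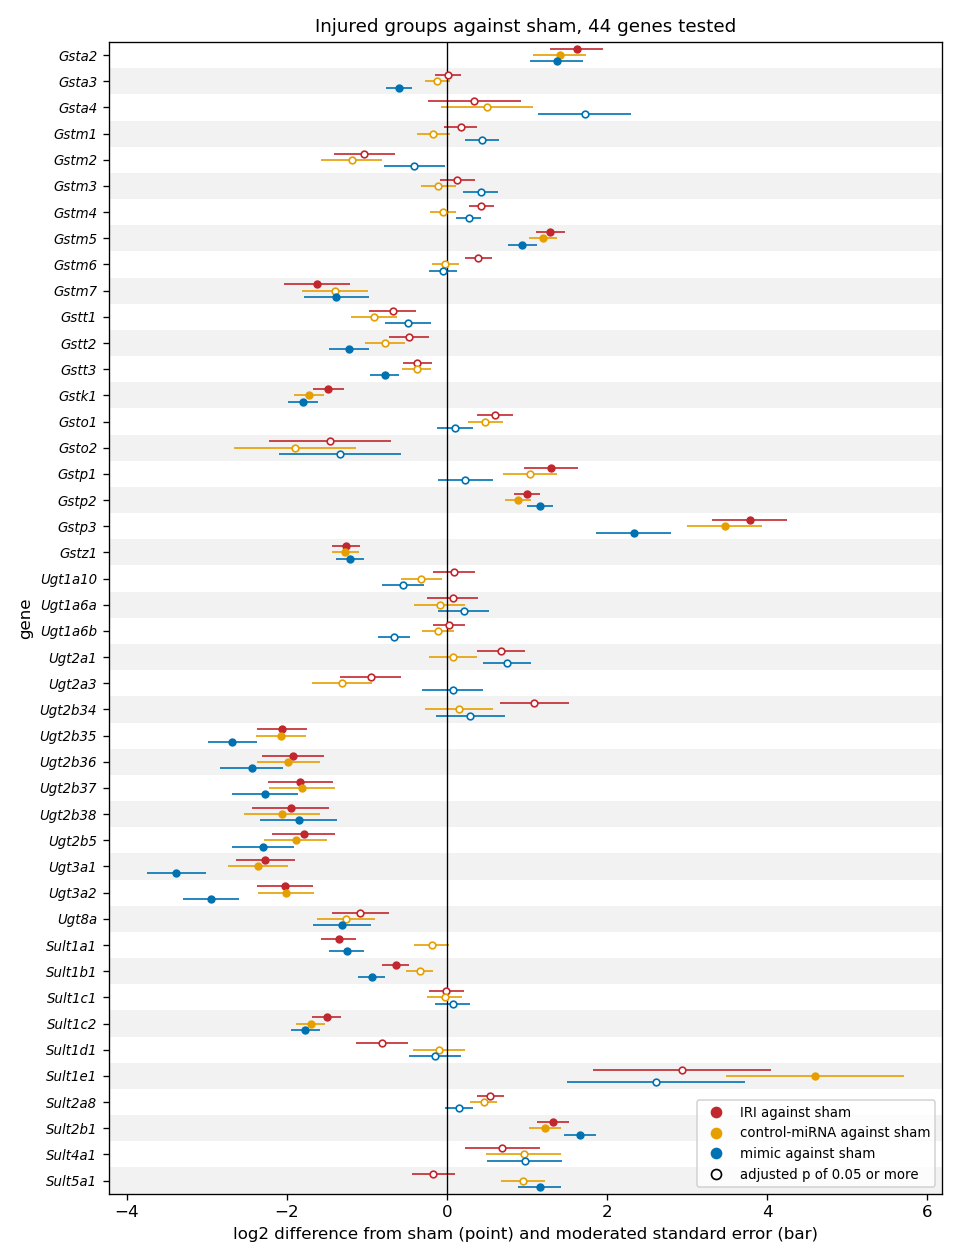
Log2 difference from sham (horizontal axis, points) with its moderated standard error (bars) for the 44 genes tested, in IRI, control-miRNA and mimic mice, 2 mice in each group. Filled points have a limma adjusted p under 0.05. The genes from Ugt2b35 to Ugt3a2 lie to the left of 0 in all 3 comparisons, while Gsta2, Gstm5, Gstp2 and Gstp3 lie to the right. Gstp3, Sult1e1 and Sult4a1 were not well above background in sham, so their points show fitted values and not bounds.

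Among the glutathione transferases, 20 of the 21 genes were tested. In IRI mice 5 rose and 3 fell, in control-miRNA mice 4 rose and 2 fell, and in mimic mice 4 rose and 6 fell. Of all genes, 9.47% rose and 8.81% fell in IRI, 9.49% and 7.87% in control-miRNA and 14.9% and 13% in mimic mice. Members of 1 class moved in different directions, and the median difference over the 20 genes was 0.15, -0.11 and 0.03 in the 3 injured groups.

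Gsta2, of the alpha class that reduces lipid hydroperoxides, read 5.66 and 6.41 in sham kidneys, 7.79 and 7.53 after IRI, 7.77 and 7.12 after IRI with control miRNA and 7.58 and 7.24 after IRI with the mimic. Every injured kidney lay above both sham kidneys, and the 3 injured groups overlapped each other. Gsta2 rose by 1.62 (SE 0.33, adjusted p = 0.0191) after IRI alone, by 1.41 (SE 0.33, adjusted p = 0.0307) with control miRNA and by 1.37 (SE 0.33, adjusted p = 0.0247) with the mimic. The 2 sham kidneys stood 0.75 apart, and without sham 1 the call was lost in each of the 3 comparisons. It was also lost in IRI mice without IRI 30 or IRI 34, in control-miRNA mice without sham 4 or control-miRNA 1 and in mimic mice without mimic 6. Gsta3 read 4.80 and 5.00 in sham kidneys, 4.95 and 4.87 after IRI, 4.77 and 4.78 after IRI with control miRNA and 4.40 and 4.19 after IRI with the mimic. Only the mimic kidneys stood apart, below the other 6. Gsta3 fell by 0.60 (SE 0.16, adjusted p = 0.0362) in mimic against sham and by 0.61 (SE 0.16, adjusted p = 0.0495) in mimic against IRI. A second Gsta3 probe gave -1.56 for mimic against sham. Each of the 2 Gsta3 calls stood in 5 of 14 alternatives. Both were lost with array brightness or slide column as a covariate, with array weights and with only the 4 arrays compared. The call against sham was also lost without a filter and with the mean of probes. That against IRI was also lost with quantile normalization and in the deposited table. Left without sham 1, sham 4 or mimic 7 the first was lost, and without IRI 30, IRI 34 or mimic 7 the second. Gsta4, which acts on the lipid peroxidation product 4-hydroxynonenal, differed by 1.72 in mimic against sham (SE 0.58, adjusted p = 0.0654) and did not pass.

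The mu class has its genes side by side on chromosome 3, and Gstm5 was the member that rose in all 3 injured groups. Its probe lies at mm9 chr3:107701511-107701570. Gstm5 read 5.82 and 5.95 in sham kidneys, 7.32 and 7.04 after IRI, 7.01 and 7.16 after IRI with control miRNA and 6.73 and 6.93 after IRI with the mimic. The 6 injured kidneys all lay above sham, with no overlap. The differences were 1.29 (SE 0.18, adjusted p = 0.00572), 1.20 (SE 0.18, adjusted p = 0.00794) and 0.94 (SE 0.18, adjusted p = 0.0122). A second Gstm5 probe gave 1.40 and 1.15 in IRI and control-miRNA mice and -0.09 in mimic mice. Without sham 1 the Gstm5 call was lost in all 3 groups (adjusted p up to 0.0827), without sham 4 in control-miRNA and mimic mice, and without IRI 30 in IRI mice. Gstm7, whose probe spans an intron of the same cluster, read -2.93 and -2.97 in sham kidneys, -4.64 and -4.51 after IRI, -4.24 and -4.46 after IRI with control miRNA and -3.64 and -5.02 after IRI with the mimic. It fell by 1.62 (SE 0.41, adjusted p = 0.0369) in IRI and by 1.38 (SE 0.41, adjusted p = 0.0453) in mimic mice, and the difference of -1.40 in control-miRNA mice did not pass (adjusted p = 0.058). Gstm7 was well above background on 6 of 8 arrays, not on IRI 30 or mimic 7. The IRI call was lost whichever of the 4 mice was left out, while in mimic mice the call was lost without sham 1 or sham 4. The size of its difference also moved, to -0.67 in IRI and -0.02 in mimic mice with normexp, to -0.87 in IRI mice with slide column as a covariate and to -0.31 in mimic mice with array brightness as one. In mimic mice it was -2.07 without mimic 6 and -0.69 without mimic 7.

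Gstm1, the enzyme for which the class is best known, read 5.96 and 5.96 in sham kidneys, 6.13 and 6.14 after IRI, 5.68 and 5.91 after IRI with control miRNA and 6.14 and 6.66 after IRI with the mimic. Its differences from sham were 0.17, -0.17 and 0.44, and none passed (adjusted p = 0.158 in mimic mice). The files place this probe at mm9 chr5:117082490-117082549, outside the chromosome 3 cluster, and the other Gstm1 probe, at mm9 chr3:107815595-107815654, gave -0.32 in mimic mice. Gstm3 read 6.55 and 6.37 in sham and between 6.24 and 7.15 in the injured kidneys, and was not called. Gstm2 read 4.12 and 3.92 in sham kidneys, 2.94 and 3.03 after IRI, 2.70 and 2.96 after IRI with control miRNA and 2.98 and 4.25 after IRI with the mimic. The IRI and control-miRNA kidneys and mimic 6 lay near 3, and mimic 7 lay above both sham kidneys. None of its 3 differences from sham passed (-1.03, -1.19 and -0.41). Gstm4 and Gstm6 differed from sham by less than 0.5 in every injured group, though a second Gstm6 probe gave 1.21, 0.93 and 1.51.

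**Figure D2:**
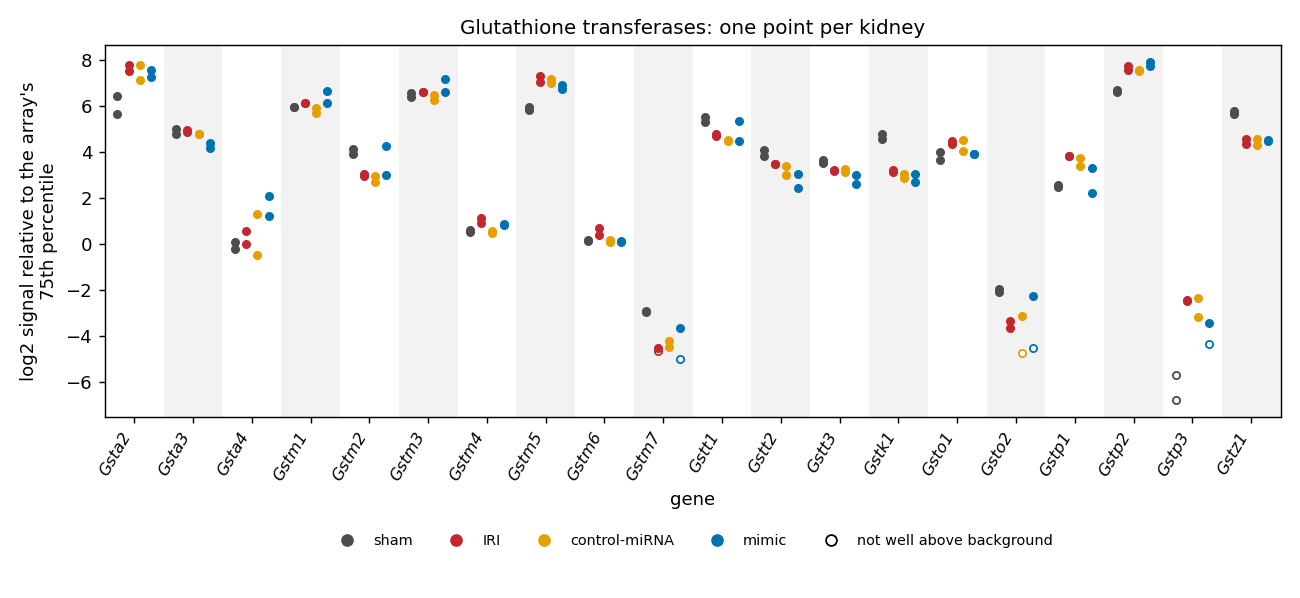
Level of the 20 glutathione transferases tested (vertical axis, log2 signal relative to the array's 75th percentile), one point per kidney, coloured by group, with open points where the probe was not well above background. Gstk1 and Gstz1 lie lower, and Gsta2, Gstm5 and Gstp2 higher, in all 6 injured kidneys than in the 2 sham kidneys, and mimic 7 stands apart from mimic 6 for Gstm2 and Gsto2.

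Of the pi class, a soluble class with broad substrates, Gstp2 and Gstp3 rose in all 3 injured groups, and Gstp1 passed the test in IRI mice and not in the other 2 groups. Gstp2 read 6.62 and 6.68 in sham kidneys, 7.75 and 7.55 after IRI, 7.56 and 7.53 after IRI with control miRNA and 7.72 and 7.90 after IRI with the mimic. It rose by 1.00 (SE 0.16, adjusted p = 0.00976), 0.89 (SE 0.16, adjusted p = 0.0152) and 1.16 (SE 0.16, adjusted p = 0.00504). The lowest injured kidney, at 7.53, lay above the highest sham kidney, at 6.68. In control-miRNA mice the call was lost whichever of the 4 mice compared was left out (adjusted p from 0.0505 to 0.115), and in IRI mice without sham 1, sham 4 or IRI 30. Gstp3, at mm9 chr19:4057988-4058137, was not well above background in sham (-6.78 and -5.68). It read -2.44 and -2.47 after IRI, -3.18 and -2.34 with control miRNA and -3.43 and -4.37 with the mimic, of which mimic 7 was also not well above background. Gstp3 passed the filter through the IRI and control-miRNA groups and not through sham. Taking the lowest reliable signal in place of a dim sham value, it was 4.66-fold higher in IRI and 3.77-fold in control-miRNA mice. These folds hold for the processing used here and are no firm bounds. Among the alternatives the fitted difference fell to 1.09 in IRI and 0.99 in control-miRNA mice. With 1 mouse left out it was at least 3.23 and 2.92. In sham 1, Krt20 at -4.23 was well above background and Maff at -4.12 was not. The lowest reliable signal is therefore no detection limit for every probe. In mimic mice the value was 1.71-fold, which is also no firm bound because mimic 7 entered as it read. The adjusted p-values, 0.00421, 0.00611 and 0.0154, belong to the fitted differences of 3.78, 3.47 and 2.33 and not to these folds. In mimic mice the call was lost without sham 1 (adjusted p = 0.078). The Gstp1 probe matches accessions of both Gstp1 and Gstp2. It read 2.49 and 2.56 in sham kidneys, 3.82 and 3.82 after IRI, 3.73 and 3.40 after IRI with control miRNA and 3.29 and 2.22 after IRI with the mimic. Gstp1 rose by 1.30 in IRI (SE 0.34, adjusted p = 0.0411), a call lost whichever of the 4 mice was left out (adjusted p from 0.155 to 0.185). Its differences in control-miRNA (1.04, adjusted p = 0.0781) and mimic mice (0.23, adjusted p = 0.626) did not pass, and mimic 7 lay below both sham kidneys.

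Gstk1, the enzyme of mitochondria and peroxisomes, and Gstz1, which isomerises maleylacetoacetate in tyrosine breakdown, fell in all 3 injured groups. Gstk1 read 4.55 and 4.76 in sham kidneys, 3.12 and 3.23 after IRI, 2.85 and 3.02 after IRI with control miRNA and 2.69 and 3.02 after IRI with the mimic. The injured kidneys lay at least 1 log2 unit below sham, with no overlap. The differences were -1.48 (SE 0.19, adjusted p = 0.00429), -1.72 (SE 0.19, adjusted p = 0.00293) and -1.80 (SE 0.19, adjusted p = 0.00219). In IRI and control-miRNA mice this call stood under each of the 14 alternatives tried, the 4 that leave out 1 mouse included. Gstz1 read 5.66 and 5.77 in sham kidneys, 4.57 and 4.34 after IRI, 4.32 and 4.58 after IRI with control miRNA and 4.49 and 4.51 after IRI with the mimic. It fell by 1.26 (SE 0.17, adjusted p = 0.00569), 1.27 (SE 0.17, adjusted p = 0.00612) and 1.21 (SE 0.17, adjusted p = 0.00556), and without sham 4 the adjusted p lay above the threshold in all 3 comparisons, as it did without sham 1 in control-miRNA mice.

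The theta class dehalogenates small molecules. Gstt1 read 5.30 and 5.50 in sham kidneys, 4.69 and 4.76 after IRI, 4.49 and 4.5 after IRI with control miRNA and 4.47 and 5.36 after IRI with the mimic, and none of its differences from sham passed. Gstt2 read 3.84 and 4.09 in sham kidneys, 3.47 and 3.49 after IRI, 3.0 and 3.40 after IRI with control miRNA and 3.05 and 2.44 after IRI with the mimic. All 6 injured kidneys lay below sham, and the test was passed in mimic mice, by -1.22 (SE 0.25, adjusted p = 0.0161), but not in IRI (-0.48) or control-miRNA mice (-0.77). A second Gstt2 probe gave the other order, -1.01 and -1.28 in IRI and control-miRNA mice and -0.30 with the mimic. Gstt3 fell by 0.78 in mimic mice (SE 0.18, adjusted p = 0.0233). Without sham 1 or without sham 4 the Gstt2 and Gstt3 calls were lost. The omega class, which recycles dehydroascorbate, had no call. Gsto1 ranged from 3.65 to 4.54, and Gsto2 from -4.73 to -1.97 with a gap of 2.26 between the 2 mimic kidneys.

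The glucuronosyltransferases had no member that rose against sham in any injured group. Of 14 tested, 7 fell after IRI, 7 with control miRNA and 8 with the mimic, and the median differences were -1.44, -1.56 and -1.58. Genes called lower made up 8.81%, 7.87% and 13% of all genes in these comparisons. The decreases lay in the UGT2B, UGT3 and UGT8 genes, and no UGT1 gene was called.

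The UGT2 genes conjugate steroids, bile acids and drugs and lie in 1 cluster on chromosome 5, with 9 members on this array. Of the 8 tested, Ugt2b35, Ugt2b36, Ugt2b37, Ugt2b38 and Ugt2b5 fell in all 3 injured groups, and Ugt2a1, Ugt2a3 and Ugt2b34 were called in none. Ugt2b38, at mm9 chr5:87839345-87839404, read 6.46 and 6.31 in sham kidneys, 4.26 and 4.62 after IRI, 3.87 and 4.77 after IRI with control miRNA and 3.85 and 5.23 after IRI with the mimic. It fell by 1.95 (SE 0.48, adjusted p = 0.0355), 2.06 (SE 0.48, adjusted p = 0.031) and 1.85 (SE 0.48, adjusted p = 0.0319). Mimic 7 was the highest of the injured kidneys and still lay below both sham kidneys. Ugt2b5, at mm9 chr5:87554155-87554214, read 3.16 and 3.22 in sham kidneys, 1.19 and 1.61 after IRI, 1.13 and 1.47 after IRI with control miRNA and 0.28 and 1.49 after IRI with the mimic. Its differences were -1.79 (SE 0.39, adjusted p = 0.0239), -1.89 (SE 0.39, adjusted p = 0.0212) and -2.30 (SE 0.39, adjusted p = 0.00856).

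Ugt2b37, at mm9 chr5:87669707-87669766, read 4.41 and 4.57 in sham kidneys, 2.40 and 2.91 after IRI, 2.48 and 2.89 after IRI with control miRNA and 1.59 and 2.85 after IRI with the mimic. Its differences were -1.83, -1.81 and -2.27 (SE 0.41 each, adjusted p = 0.0273, 0.0296 and 0.0108). Ugt2b36 read 2.72 and 2.83 in sham kidneys, 0.60 and 1.12 after IRI, 0.52 and 1.07 after IRI with control miRNA and -0.21 and 0.89 after IRI with the mimic, with differences of -1.92, -1.98 and -2.44 (SE 0.39 each, adjusted p = 0.0196, 0.0191 and 0.00754). For both genes the injured kidneys lay well below sham with no overlap, and mimic 6 was the lowest of all 8. Ugt2b35, at mm9 chr5:87440554-87440613, read 0.70 and 0.54 in sham kidneys, -1.58 and -1.29 after IRI, -1.66 and -1.25 after IRI with control miRNA and -2.49 and -1.64 after IRI with the mimic. Its differences were -2.06, -2.07 and -2.68 (SE 0.31 each, adjusted p = 0.00732, 0.00772 and 0.00284). With 1 mouse left out, the IRI differences of the 5 genes lay between -2.20 and -1.58. Leaving out sham 1, or sham 4, or IRI 30, or IRI 34 ended the IRI calls of Ugt2b36, Ugt2b37, Ugt2b38 and Ugt2b5 (adjusted p from 0.0639 to 0.168), and that of Ugt2b35 ended without sham 1 or IRI 30. In control-miRNA mice all 5 calls were lost without sham 1, sham 4 or control-miRNA 1, and those of Ugt2b37 and Ugt2b5 also without control-miRNA 5. In mimic mice the call of Ugt2b35 stood in each case, those of the other 4 genes were lost without sham 4, those of Ugt2b37 and Ugt2b38 without sham 1 and that of Ugt2b38 without mimic 6.

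Signals of these neighbours are not fully separate, because the genes are close copies. The Ugt2b36 probe matches accessions of Ugt2b36 and Ugt2b37, and the probes of Ugt2b37 and Ugt2b5 carry the same base at 46 of 55 aligned positions. The members of the cluster that were not called read otherwise. Ugt2b34, at mm9 chr5:87318849-87318908, read 1.00 and 1.63 in sham kidneys, 2.70 and 2.10 after IRI, 2.08 and 0.86 after IRI with control miRNA and 1.68 and 1.53 after IRI with the mimic, and its difference of 1.09 in IRI mice did not pass (SE 0.43, adjusted p = 0.129). Ugt2a1, the olfactory form, differed by 0.67, 0.07 and 0.75, and Ugt2a3 by -0.95, -1.31 and 0.07, with none past the threshold. Ugt2a3 was not well above background in control-miRNA 1. Ugt2b1 was on the array but not well above background in any kidney.

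The promoters of the 5 UGT2B genes that fell were compared because these genes moved together. The 100 bases before the start sites are given from RefSeq on GRCm38.p6, each 5′ to 3′ on the strand of its gene, with a shared run of 22 bases in capitals. They are chr5:87092556-87092655 on the minus strand for Ugt2b36, chr5:87140341-87140440 on the minus strand for Ugt2b5, chr5:87254789-87254888 on the minus strand for Ugt2b37, chr5:87424204-87424303 on the minus strand for Ugt2b38 and chr5:87000760-87000859 on the plus strand for Ugt2b35. The run, GATAAAAGGTCAAGCAGTGACA, was found in the windows of Ugt2b36, Ugt2b5, Ugt2b37 and Ugt2b38 and not in that of Ugt2b35. It was in none of the other 4 UGT2 promoters, of Ugt2a1, Ugt2a3, Ugt2b1 and Ugt2b34, and in 4 of all 32851 promoters of 250 bases. Ugt2b36, Ugt2b37 and Ugt2b38 were picked because their promoters match that of Ugt2b5 over 24 to 68 bases in a row. The run is the longest one common to these and Ugt2b5, so its presence in them was fixed by that choice. Ugt2b35 and the other UGT2 promoters match Ugt2b5 over at most 9 bases in a row and could not hold the run. Only exact matches were sought, so a copy of the run with changed bases would be missed. Any part of the run in the lower levels of these genes was not tested.
Ugt2b36: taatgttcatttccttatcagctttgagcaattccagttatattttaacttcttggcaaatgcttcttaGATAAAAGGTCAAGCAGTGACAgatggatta
Ugt2b5: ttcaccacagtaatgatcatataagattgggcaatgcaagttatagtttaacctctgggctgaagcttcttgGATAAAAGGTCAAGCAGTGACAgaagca
Ugt2b37: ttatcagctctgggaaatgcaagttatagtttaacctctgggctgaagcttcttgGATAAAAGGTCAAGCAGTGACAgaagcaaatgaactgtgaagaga
Ugt2b38: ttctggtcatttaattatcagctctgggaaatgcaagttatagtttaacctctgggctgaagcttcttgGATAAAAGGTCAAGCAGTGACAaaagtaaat
Ugt2b35: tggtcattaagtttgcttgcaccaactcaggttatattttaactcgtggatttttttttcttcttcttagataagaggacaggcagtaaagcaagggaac

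Ugt3a1 and Ugt3a2, which transfer sugars other than glucuronic acid and lie side by side on chromosome 15, fell in all 3 injured groups, and Ugt3a1 had the lowest difference of the 44 genes in each. Ugt3a1, at mm9 chr15:9244274-9244333, read 5.50 and 5.45 in sham kidneys, 2.75 and 3.66 after IRI, 2.71 and 3.53 after IRI with control miRNA and 2.24 and 1.95 after IRI with the mimic. It fell by 2.27 (SE 0.37, adjusted p = 0.00975), 2.36 (SE 0.37, adjusted p = 0.00955) and 3.38 (SE 0.37, adjusted p = 0.00248). Ugt3a2, at mm9 chr15:9300203-9300262, read 6.18 and 6.16 in sham kidneys, 3.75 and 4.55 after IRI, 3.74 and 4.58 after IRI with control miRNA and 3.32 and 3.12 after IRI with the mimic. It fell by 2.02 (SE 0.35, adjusted p = 0.0118), 2.01 (SE 0.35, adjusted p = 0.0132) and 2.95 (SE 0.35, adjusted p = 0.00313). The 2 sham kidneys stood 0.06 and 0.02 apart for these genes, and the mimic kidneys lay below all other kidneys. The difference between mimic and control-miRNA, -1.02 for Ugt3a1 and -0.94 for Ugt3a2, did not pass (adjusted p = 0.11 and 0.118). A second Ugt3a2 probe gave -2.12 and -2.06 in IRI and control-miRNA mice but -1.25 in mimic mice, and another, well above background on 4 of 8 arrays, gave -2.54, -2.84 and -3.33. Without sham 1, sham 4 or IRI 30 the IRI calls of both genes were lost, and without sham 1, sham 4 or control-miRNA 1 those in control-miRNA mice, while in mimic mice they stood whichever mouse was left out.

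Ugt8a, which makes galactosylceramide, a glycolipid of myelin and of some kidney cells, read 0.73 and 0.79 in sham kidneys, -0.12 and -0.51 after IRI, -1.05 and 0.06 after IRI with control miRNA and -0.73 and -0.36 after IRI with the mimic. All 6 injured kidneys lay below sham. The difference passed in mimic mice, at -1.31 (SE 0.36, adjusted p = 0.0387), but not in IRI (-1.08, adjusted p = 0.0855) or control-miRNA mice (-1.26, adjusted p = 0.0572). The mimic call was lost whichever of the 4 mice was left out (adjusted p from 0.068 to 0.168).

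**Figure D3:**
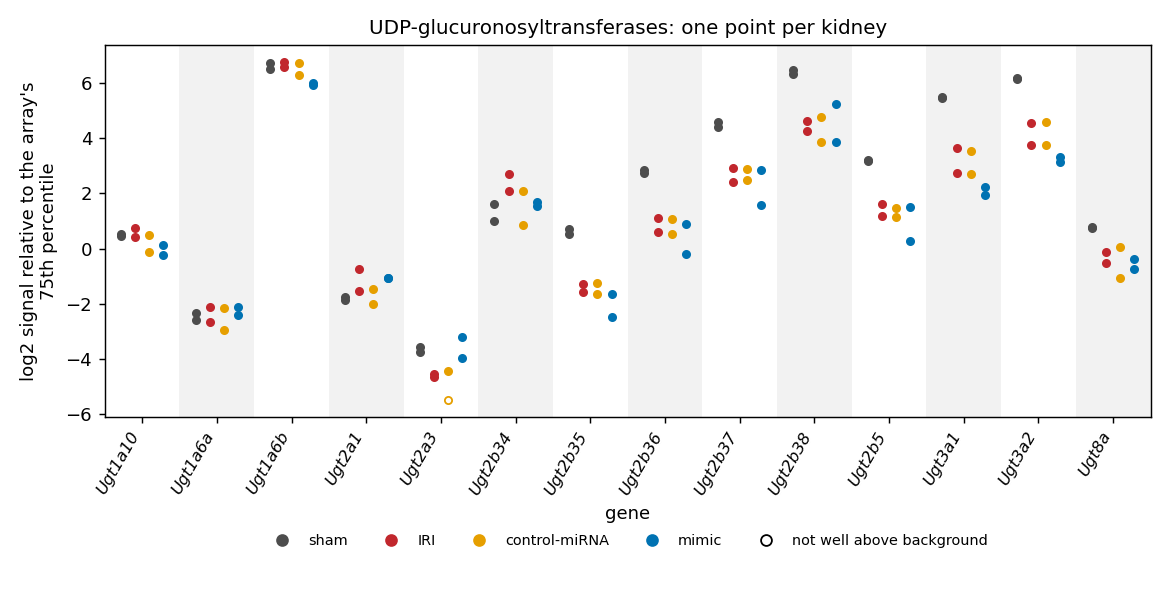
Level of the 14 glucuronosyltransferases tested (vertical axis, log2 signal relative to the array's 75th percentile), one point per kidney, coloured by group, with an open point where the probe was not well above background. For Ugt2b35, Ugt2b36, Ugt2b37, Ugt2b38, Ugt2b5, Ugt3a1 and Ugt3a2 the 2 sham points lie close together and above all 6 injured points, while the UGT1 genes lie at similar levels in sham and IRI kidneys.

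The UGT1 enzymes, which include those that conjugate bilirubin and phenols, come from 1 locus on chromosome 1, in which alternative first exons are joined to a common end. A probe in the common end can therefore read several enzymes together. The 3 probes below are shown because they lie at different places along the locus, although none was assigned to an exon here. Their positions on the array are given in mm9. The downstream Ugt1a6b probe is at chr1:90114900-90114959, the upstream Ugt1a6b probe at chr1:90004249-90004308 and the Ugt1a10 probe at chr1:89952780-89952839. Capitals mark the 32 of 54 aligned bases that the 2 upstream probes share.
Ugt1a6b downstream: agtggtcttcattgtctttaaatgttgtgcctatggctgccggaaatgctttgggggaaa
Ugt1a6b upstream: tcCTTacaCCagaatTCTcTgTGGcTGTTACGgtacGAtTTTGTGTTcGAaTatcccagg
Ugt1a10 upstream: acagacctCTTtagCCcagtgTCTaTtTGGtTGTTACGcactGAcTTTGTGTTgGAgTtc

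The probe that represents Ugt1a6b, at mm9 chr1:90115493-90115552, matches accessions of 4 UGT1 genes. It read 6.52 and 6.73 in sham kidneys, 6.75 and 6.56 after IRI, 6.29 and 6.73 after IRI with control miRNA and 5.92 and 6.01 after IRI with the mimic. Sham, IRI and control-miRNA kidneys overlapped, and the mimic kidneys lay below the other 6. The difference from sham was 0.03 in IRI and -0.66 in mimic mice, where it did not pass (SE 0.20, adjusted p = 0.0513). The upstream Ugt1a6b probe was well above background on 1 array, and the downstream one gave -0.02, -0.32 and -0.27. Ugt1a10, whose probe also matches Ugt1a9, ranged from -0.25 to 0.74 over the 8 kidneys and Ugt1a6a from -2.95 to -2.10, with no call in any comparison.

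Of the sulfotransferases 10 of 21 were tested, and 11 were not well above background on any array, among them Sult2a1 to Sult2a7. In IRI mice 1 rose and 3 fell, in control-miRNA mice 2 rose and 1 fell, and in mimic mice 2 rose and 3 fell. The share of all genes called higher was 9.47%, 9.49% and 14.9% in these comparisons, and the share called lower 8.81%, 7.87% and 13%.

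Sult1c2 fell in all 3 injured groups. It read 3.90 and 4.01 in sham kidneys, 2.47 and 2.45 after IRI, 2.28 and 2.23 after IRI with control miRNA and 1.98 and 2.40 after IRI with the mimic. Sham and injured kidneys stood clearly apart, and the 3 injured groups lay within 0.5 of each other. The differences were -1.5 (SE 0.18, adjusted p = 0.00394), -1.70 (SE 0.18, adjusted p = 0.00293) and -1.77 (SE 0.18, adjusted p = 0.00223), and they stood whichever mouse was left out. Sult2b1, which sulfates cholesterol and other hydroxysteroids, rose in all 3. It read -2.21 and -2.60 in sham kidneys, -1.22 and -0.95 after IRI, -1.07 and -1.29 after IRI with control miRNA and -0.75 and -0.75 after IRI with the mimic. All injured kidneys lay above sham, by 1.32 (SE 0.20, adjusted p = 0.00812), 1.22 (SE 0.20, adjusted p = 0.011) and 1.66 (SE 0.20, adjusted p = 0.00342). Without sham 4 the IRI and control-miRNA calls were lost, as they were without IRI 34 and without control-miRNA 1.

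Sult1a1, which sulfates phenols, separated the injured groups. It read 1.08 and 1.45 in sham kidneys, -0.08 and -0.09 after IRI, 1.30 and 0.84 after IRI with control miRNA and -0.05 and 0.07 after IRI with the mimic. The control-miRNA kidneys lay in or near the sham range, while IRI and mimic kidneys lay near 0. Sult1a1 fell in IRI (-1.35, SE 0.22, adjusted p = 0.00968) and mimic mice (-1.25, SE 0.22, adjusted p = 0.00958) and did not pass in control-miRNA mice (-0.19, adjusted p = 0.577). The direct differences were 1.16 for control-miRNA against IRI (SE 0.22, unadjusted p = 0.00121, adjusted p = 0.662) and -1.06 for mimic against control-miRNA (SE 0.22, unadjusted p = 0.00199, adjusted p = 0.067), and neither passed. A second Sult1a1 probe gave -1.31, -0.24 and -1.37 against sham. Without sham 4, the calls in IRI and mimic mice were lost, and the IRI call was also lost without IRI 30 or IRI 34.

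Sult1e1, the estrogen sulfotransferase, was not well above background in sham (-6.77 and -7.14). It read -3.20 and -4.84 after IRI, -2.44 and -2.28 with control miRNA and -2.50 and -6.19 with the mimic. Mimic 7 was not well above background and lay 3.69 below mimic 6, the widest gap between the 2 mice of a group for any of the 44 genes. Taken as for Gstp3, Sult1e1 was 4.97-fold higher in control-miRNA mice than in sham, which is no firm bound. Among the alternatives its fitted difference there ranged from 1.33 to 7.37. The adjusted p of 0.0347 belongs to the fitted difference and not to this fold. With 1 mouse left out the difference lay between 4.41 and 4.78, and the call was lost in each case. It was also lost without a filter and with array brightness or slide column as a covariate. In IRI mice the value was 1.57-fold, again no firm bound. In mimic mice the value was 1.26-fold, where mimic 7 also entered as it read. The fitted differences, 2.94 in IRI and 2.61 in mimic mice, did not pass (adjusted p = 0.114 and 0.117). Its neighbours on chromosome 5, which follow the UGT2 cluster, were Sult1b1 and Sult1d1. Sult1b1, which acts on thyroid hormones and phenols, read -0.51 and -0.44 in sham kidneys, -1.07 and -1.16 after IRI, -0.83 and -0.79 after IRI with control miRNA and -1.57 and -1.26 after IRI with the mimic. It fell by 0.64 (SE 0.17, adjusted p = 0.0447) in IRI and by 0.94 (SE 0.17, adjusted p = 0.0107) in mimic mice, but without sham 1 or sham 4 both calls were lost, and the IRI call was also lost without IRI 30 or IRI 34. Sult1d1, with the brightest probe of the SULT1 class, ranged from 3.91 to 5.27 and was not called.

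Sult5a1 was higher in both injected groups than in the others. It read -3.92 and -3.78 in sham kidneys, -3.71 and -4.33 after IRI, -2.62 and -3.17 after IRI with control miRNA and -2.59 and -2.78 after IRI with the mimic. The injected kidneys all lay above the other 4. Sult5a1 rose by 1.16 (SE 0.27, adjusted p = 0.0237) in mimic against sham and by 1.34 (SE 0.27, adjusted p = 0.0389) in mimic against IRI, while 0.95 in control-miRNA against sham (adjusted p = 0.056) and 1.12 in control-miRNA against IRI (adjusted p = 0.81) did not pass. Both mimic calls were lost under quantile normalization, with array brightness as a covariate, in the deposited table and with array weights. Leaving out any of the 4 mice ended the call against sham, and leaving out IRI 30, IRI 34 or mimic 7 that against IRI. Sult2a8 ranged from -0.74 to -0.10 and Sult1c1 from -3.89 to -3.43, with no call. Sult4a1, known from brain, was well above background in the 2 IRI and the 2 control-miRNA kidneys and in no sham or mimic kidney. Taken over sham as for Gstp3, its folds were 1.01 and 1.23, which are no firm bounds, and it had no call.

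**Figure D4:**
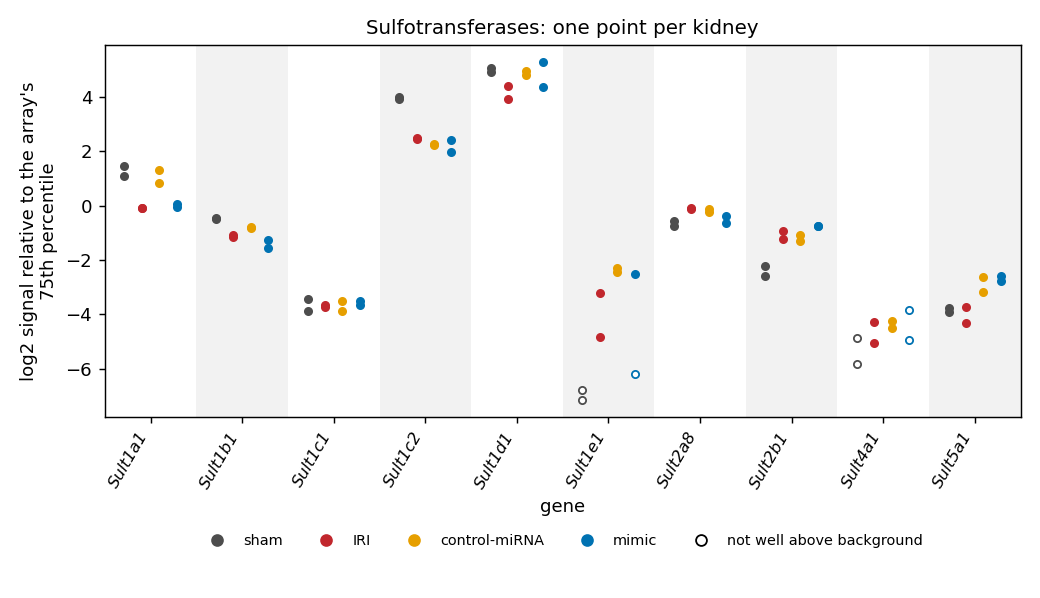
Level of the 10 sulfotransferases tested (vertical axis, log2 signal relative to the array's 75th percentile), one point per kidney, coloured by group, with open points where the probe was not well above background. Sult1c2 is lower and Sult2b1 higher in every injured kidney than in sham, the control-miRNA points of Sult1a1 lie beside sham, and the 2 mimic points of Sult1e1 lie 3.69 apart.

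Between mimic and control-miRNA mice, which differed in the miRNA on the particles, in slide column and in array brightness, limma called 0 of the 44 genes and 0 of all 21264 (0%). At an unadjusted p under 0.05 there were 11 of the 44 and 7180 of all genes. The median difference over the 44 genes was -0.06, beside 0.07 over all genes, and the groups did not overlap for 21 of the 44 (47.7%, against 59% of all genes). Among the 11, besides Sult1a1, Ugt3a1 and Ugt3a2, were Ugt2a3 at 1.38 (SE 0.38, adjusted p = 0.0728) and Gstp3 at -1.14 (SE 0.47, adjusted p = 0.145). Without mimic 6, 5 genes were called higher and 6 lower (25% of the 44, where 29.7% of all genes were called), and with normexp background correction 2 higher and 5 lower (15.9%, against 27.6% of all genes). In mimic against IRI mice 1 gene rose, Sult5a1, and 1 fell, Gsta3, which is 4.55% of the 44 where 15.4% of all genes were called, 9.85% higher and 5.59% lower. The groups did not overlap for 25 of the 44 (56.8%, against 67.3% of all genes), and without mimic 6 the counts of calls were 3 higher and 6 lower (20.5%, against 35.3% of all genes). In control-miRNA against IRI mice limma called 0 of the 44 genes and 0 of all genes (0%), with 4 of the 44 and 864 of all genes at an unadjusted p under 0.05, and groups that did not overlap for 18 of the 44 (40.9%, against 32.6% of all genes). Mimic 6 and mimic 7 differed from each other more than the mice of any other group did. The SD of the difference between the 2 mice over the 44 genes was 0.32 for sham, 0.45 for IRI, 0.61 for control-miRNA and 0.93 for mimic mice. Over all genes it was 0.33, 0.39, 0.51 and 0.67. Mimic 7 was higher than mimic 6 for 6 of the 8 UGT2 genes (median 0.98) and for 11534 of all 21264 genes (median 0.05). Control-miRNA 5 was also higher than control-miRNA 1 for 6 of the 8 (median 0.41), and for 12021 of all genes (median 0.06). The part of array brightness in these differences was not tested beyond the covariate given above.

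Other genes that make, carry or use the substrates of the 3 families were listed with earlier results of these data known. The counts here and below stand beside 9.47% of all genes higher and 8.81% lower in IRI mice. These shares were 9.49% and 7.87% in control-miRNA and 14.9% and 13% in mimic mice. Of 15 genes of glutathione synthesis and turnover, 2 rose and 5 fell in IRI mice, with a median of -0.20. Txnrd1, a thioredoxin reductase, rose by 1.77 (SE 0.17, adjusted p = 0.0018), and Dpep1, a brush-border dipeptidase that completes the breakdown of glutathione conjugates, fell by 2.45 (SE 0.19, adjusted p = 0.00102). Ggct and Ggt1, which break down gamma-glutamyl peptides, fell by 1.35 (SE 0.15, adjusted p = 0.00284) and 1.37 (SE 0.26, adjusted p = 0.0164). Counts were 2 and 3 in control-miRNA and 2 and 5 in mimic mice. Gclc, a subunit of the enzyme that limits glutathione synthesis, differed by 0.56 in IRI mice and did not pass (adjusted p = 0.367). Of 9 genes tested for other glutathione transferases and related proteins, 3 rose and 0 fell in IRI mice, with a median of 0.56. Among the 3 were the microsomal transferase Mgst1 at 1.62 (SE 0.32, adjusted p = 0.0173) and the channel protein Clic1 at 1.61 (SE 0.17, adjusted p = 0.00229). In control-miRNA mice 3 rose and in mimic mice 5, and none fell.

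For glucuronidation, 1 of 8 genes of the supply, use and release of glucuronate and sugar nucleotides rose and 1 fell in IRI mice. Ugdh, which makes UDP-glucuronic acid, rose by 0.73 (SE 0.18, adjusted p = 0.0383), while Miox, which cleaves inositol to glucuronate in the proximal tubule, fell by 2.54 (SE 0.32, adjusted p = 0.00414). Both were also called in the same direction in control-miRNA and mimic mice. For sulfation, 3 of 12 genes of the supply, use and release of sulfate fell and 0 rose in IRI mice, with a median of -0.36. Papss2, which makes PAPS, fell by 1.64 (SE 0.19, adjusted p = 0.00297), the sulfate carrier Slc26a1 by 1.69 (SE 0.26, adjusted p = 0.0086) and Bpnt1, which clears the spent donor, by 1.08 (SE 0.17, adjusted p = 0.00927). In control-miRNA and mimic mice 4 and 4 of the 12 fell.

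Other conjugating and reducing enzymes were mixed, with 4 of 15 higher and 6 lower in IRI mice. The carbonyl reductases Cbr3 and Cbr1 rose by 5.54 (SE 0.42, adjusted p = 0.00097) and 1.99 (SE 0.19, adjusted p = 0.00165), and the quinone reductase Nqo1 by 1.60 (SE 0.19, adjusted p = 0.00367). Inmt, an amine methyltransferase, fell by 4.57 (SE 0.43, adjusted p = 0.00169). Of 7 conjugate efflux pumps, Abcc3 rose by 2.82 (SE 0.19, adjusted p = 0.000931) and Abcc6 fell by 2.03 (SE 0.25, adjusted p = 0.00378) in IRI mice, and both were called in the same direction in the other injured groups. Of 14 regulators 2 rose in IRI mice, Maff, a small Maf protein, by 4.37 (SE 0.39, adjusted p = 0.00139), and Nr1i2, the pregnane X receptor, by 0.80 (SE 0.20, adjusted p = 0.0354). Nfe2l2, which encodes NRF2, the activator of many conjugation genes, differed by 1.22 in IRI (SE 0.37, adjusted p = 0.0651), 1.07 in control-miRNA (adjusted p = 0.093) and -0.26 in mimic mice (adjusted p = 0.617), and none passed. It fell by 1.48 in mimic against IRI mice (SE 0.37, adjusted p = 0.046), with the mimic kidneys at 2.44 and 1.39. This call was lost with array brightness or slide column as a covariate, with array weights and with only the 4 arrays compared. Under each of these, 0 of all genes were called in mimic against IRI. Keap1, the NRF2 inhibitor, differed by -0.23 in IRI mice (adjusted p = 0.538).

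The core of the antioxidant response element to which NRF2 binds, TGACNNNGC on either strand, was searched in the 250 bases before each start site. RefSeq promoters were found for 49 of the 57 genes, 60 in all. The core was in 3 of these 60 (5%), of Gsta3, Gstm5 and Gstm7, and in 10.2% of all 32851 promoters. Gstm5 is shown because it rose in all 3 injured groups, as the 100 bases before its start site at GRCm38.p6 chr3:107895754-107895853, plus strand, with the core in capitals. Among the other genes with a core, Gstm7 was called lower in IRI and mimic mice and Gsta3 in mimic mice. Any part of the core in these differences was not tested. The xenobiotic response element core GCGTG was in 16.7% of the 60 promoters and 28.2% of all. The HNF1 motif GTTAATNAT was in 6 of the 60 (10%), of Sult1d1, Sult2a3 to Sult2a6 and Ugt1a10, and in 0.737% of all. Of these 6 genes none was called in any comparison, and the 4 Sult2a genes were not well above background. These 4 are related genes on chromosome 7 whose matches all read GTTAATGAT, so they are not independent promoters.
Gstm5: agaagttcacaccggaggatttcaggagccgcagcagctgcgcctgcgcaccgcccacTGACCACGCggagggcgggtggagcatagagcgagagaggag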

How the data were processed

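Cy3-labelled cRNA from 50 ng of kidney RNA was read on 1-colour Agilent arrays. Per the file headers and the submitters' processing notes, Agilent Feature Extraction 12.0.3.1 gave the processed signal, an intensity that is background-subtracted and not scaled between arrays. The deposited series table holds each probe as a linear ratio to its median over the 8 arrays, as its values show; nothing in the sources used here states its scaling, and it served as an alternative. Spot flags of the deposited files (a value of 0 or 1) marked 79 to 127 outlier spots per array, which were left out. Signals were divided by the 75th percentile of their array and put on a log2 scale. Probe positions are those of mm9 in the files. Probes detected in both mice of 1 group or more were kept, and the probe with the highest mean stood for its gene. Differences, moderated standard errors and p-values came from limma 3.58.1 in R 4.3.3, fitted to the 8 arrays together with 1 mean for each group and adjusted by Benjamini-Hochberg over 21264 genes at 0.05. Between 53.2% and 58.8% of probes were well above background, and 2 mice per group limit the precision. Values are given for every array for the brightest member of a class, except Sult1d1 and Sult2a8, which are given by range. They are also given for members called with a difference of at least 1 (up to 6 per class). Members dark in 1 group and bright in another have them too, except Sult4a1. Up to 4 genes of each pathway list are named, by smallest p. The members and lists were chosen with earlier results of these data known. Alternatives covered the background correction, normalization, filter, probe summary, covariates, array weights and each mouse left out.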

Additional observations from a re-analysis of the deposited data

How the results depend on the processing

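Among the 14 alternatives per comparison, every sign of the members called was kept (264 of 264 values in IRI against sham, 222 of 222 in control-miRNA, 320 of 320 in mimic against sham and 28 of 28 in mimic against IRI), with the smallest kept value in mimic against sham only -0.02 (Gstm7 with normexp, adjusted p = 0.926), while counts of calls moved; where nothing else is said, the cause was not tested. With slide column as a covariate, 0 members were called higher and 5 lower in IRI, and 0 higher and 6 lower in control-miRNA against sham. Array weights gave 10 higher in IRI (18.3% of all genes) and 17 lower in control-miRNA against sham (13.7% of all genes). Array brightness as a covariate left 8 lower in IRI against sham (3.97% of all genes). In mimic against sham it left 0 higher and 0 lower (0.386% and 0.202% of all genes). Only the 4 arrays compared, with fewer samples for the spread, left 11 lower in mimic against sham (6.62% of all genes). In mimic against IRI the counts were 0 higher and 0 lower under quantile normalization and the deposited table (10.8% of all genes were called under each). They were also 0 and 0 under brightness, slide column, array weights and only 4 arrays (0% of all genes). With normexp they were 5 higher and 10 lower (34.1% of members, against 48.5% of all genes). Without a filter 8 were higher (27.7% of all genes). Detection on all 8 arrays gave 2 lower (9.62% of all genes), and the mean of probes 2 lower (4.64% of all genes). In mimic against control-miRNA the counts were 2 higher and 5 lower with normexp (18.6% and 9.01% of all genes). Detection on all 8 arrays gave 1 lower there (2.73% of all genes). With 1 mouse left out, which leaves a lone sample assumed to vary like the other groups, the counts ranged from 2 to 3 higher and 3 to 6 lower in IRI, 1 to 4 higher and 2 to 10 lower in control-miRNA and 2 to 7 higher and 5 to 18 lower in mimic against sham, 0 to 3 higher and 0 to 6 lower in mimic against IRI, and 0 to 5 higher and 0 to 6 lower in mimic against control-miRNA. Counts over all genes moved as well when 1 mouse was left out. In control-miRNA against IRI, 0 members were called in every alternative run. Gstm7 in mimic against control-miRNA moved from 0.02 to -0.67 (adjusted p = 0.0383) without mimic 6 and to 0.71 without mimic 7. Normexp moved the median of all genes in mimic against sham from 0.10 to 0.22. No paired analysis was made, because the groups hold different mice that are numbered separately. Signal over background limits Gstp3, Sult1e1, Sult4a1, Gsto2, Gstm7 and Ugt2a3, and 13 genes were not well above background on any array.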
